A study of Mus musculus with 14 samples.

Results

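The comparison set the mouse cell line labelled liver against 7 other lines that were not of blood origin. Members were taken by label: 10 of the 14 arrays in the series and 8 of its 11 lines. The liver line has 1 array. The other side holds mammary tumor (2 arrays), fibroblast (2 arrays), embryo fibroblast, myoblast, testis, kidney and skin (1 array each), and the macrophage, myeloma and T-cell lymphoma lines were left out. On every array the RNA of 1 line was labelled with Cy5 and hybridised against a Cy3-labelled reference pool, the Stratagene mouse reference, with no dye swap. The reference label of the first mammary tumor array carries the extra letters MRR. No treatment, time, strain, age or clone is given for any line, and a short annotation that calls the material primary tissue stands beside titles that call it a cell line. Each value is a log2 ratio of a line over the pool after the array's median was set to 0, so 0 means the typical ratio of that array. The log base and the direction are not stated in the labels. They were read from the values, on the untested assumption that the pool is close to an equal mix of these 11 lines. Averaged over the 11 lines, the unlogged ratio to the pool had a median of 1.003 over features as log2 of line over pool. It was 1.20 with the sign turned, 1.07 as a natural log and 1.87 as log10. Log2 and natural log lay close on this measure, so the base remains a reading. A gene made by 1 of 11 lines mixed in equal amounts would reach 3.46 on this scale, which is an 11-fold ratio.

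Epithelial cells carry keratin filaments, and simple epithelia such as bile duct, gut and glandular linings use keratins 8, 18 and 19, with keratin 8 pairing with a type I partner. Hepatocytes carry keratins 8 and 18, while keratin 19 marks bile duct cells in the adult liver. Laminin-332, whose beta chain is encoded by Lamb3, anchors epithelia to their basement membrane through the integrin alpha 6 beta 4 of hemidesmosomes. Fibroblasts and related mesenchymal cells instead secrete fibrillar collagens, cross-link them with lysyl oxidases and lay down matrix proteins such as tenascin C and biglycan.

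The files held 7423 features with a value in all 11 lines, from 6410 genes. A difference here is the liver value minus the mean of the 7 other lines, each line counting once. One limma model over all 14 arrays gave the standard errors (SE) and two-sided p-values, adjusted over the 7423 features by the Benjamini-Hochberg method, and a feature was called below an adjusted p of 0.05. With 1 liver array, the spread of that line was assumed to equal the spread between the 2 arrays of the mammary tumor, fibroblast and myeloma lines. Those pairs correlated across features at r = 0.67, 0.38 and 0.68. No label tells whether a pair comes from independent cultures, and the p-values thus reflect array-to-array spread, which may be technical. As a second, untested description, a feature was counted as 4-fold higher or lower when its difference was at least 2 in size and the liver array lay outside the range of all 7 lines. A comparison of 1 value with 7 by exact permutation cannot go below a two-sided p of 0.25.

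Krt8, the type II keratin of simple epithelia, was the one gene called, with 1 of 7423 features called higher (0.0135%) and 0 called lower (0.0%) by limma. At an unadjusted p under 0.05 there were 361 features higher (4.86%) and 251 lower (3.38%). Krt8 stood at 2.54 on the liver array. It stood at -3.43 and -2.67 on the mammary tumor arrays, -2.28 and -1.79 on the fibroblast arrays, -3.89 in embryo fibroblast, -2.54 in myoblast, -3.09 in testis, -3.54 in kidney and -3.22 in skin. All 9 arrays of the other lines therefore lay far below the pool and the liver array far above it, with no overlap. The difference was 5.59 ± 0.42 (SE), a 48.1-fold ratio (adjusted p = 0.0322, limma), against a spread between the 7 lines of 0.61 (SD). The arrays carry image numbers in their labels that fall into 5 runs. Among the arrays compared, the second fibroblast array and the testis array share a run with liver. Against those 2 arrays alone the Krt8 difference was 4.98. The call was lost when the 4 arrays of the blood-cell lines were left out of the model (adjusted p = 0.139), when either mammary tumor array was left out (0.0757 and 0.0681) and when either myeloma array was left out (0.124 and 0.134).

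Krt19, the type I keratin of ducts, stood at 2.80 on the liver array. The other lines ran from -3.02 in skin through a median of -1.46 to -0.82 in testis, so every one of them lay below the pool. The Krt19 difference was 4.51 ± 0.65 (SE), which did not pass the test (adjusted p = 0.0892, limma). Against the second fibroblast array and testis alone it was 3.80.

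Lamb3, the laminin beta 3 chain, stood at 2.72 on the liver array. Among the others it ran from -3.03 in embryo fibroblast through a median of -1.25 in skin to 0.61 in mammary tumor, whose arrays gave 0.49 and 0.74. Mammary tumor was thus the only one of the 7 lines with a Lamb3 ratio above the pool, and it was still below liver. The Lamb3 difference was 4.09 ± 0.40 (SE; adjusted p = 0.0532, limma), just outside the threshold, and 4.06 against the arrays of the same image run.

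**Figure D1:**
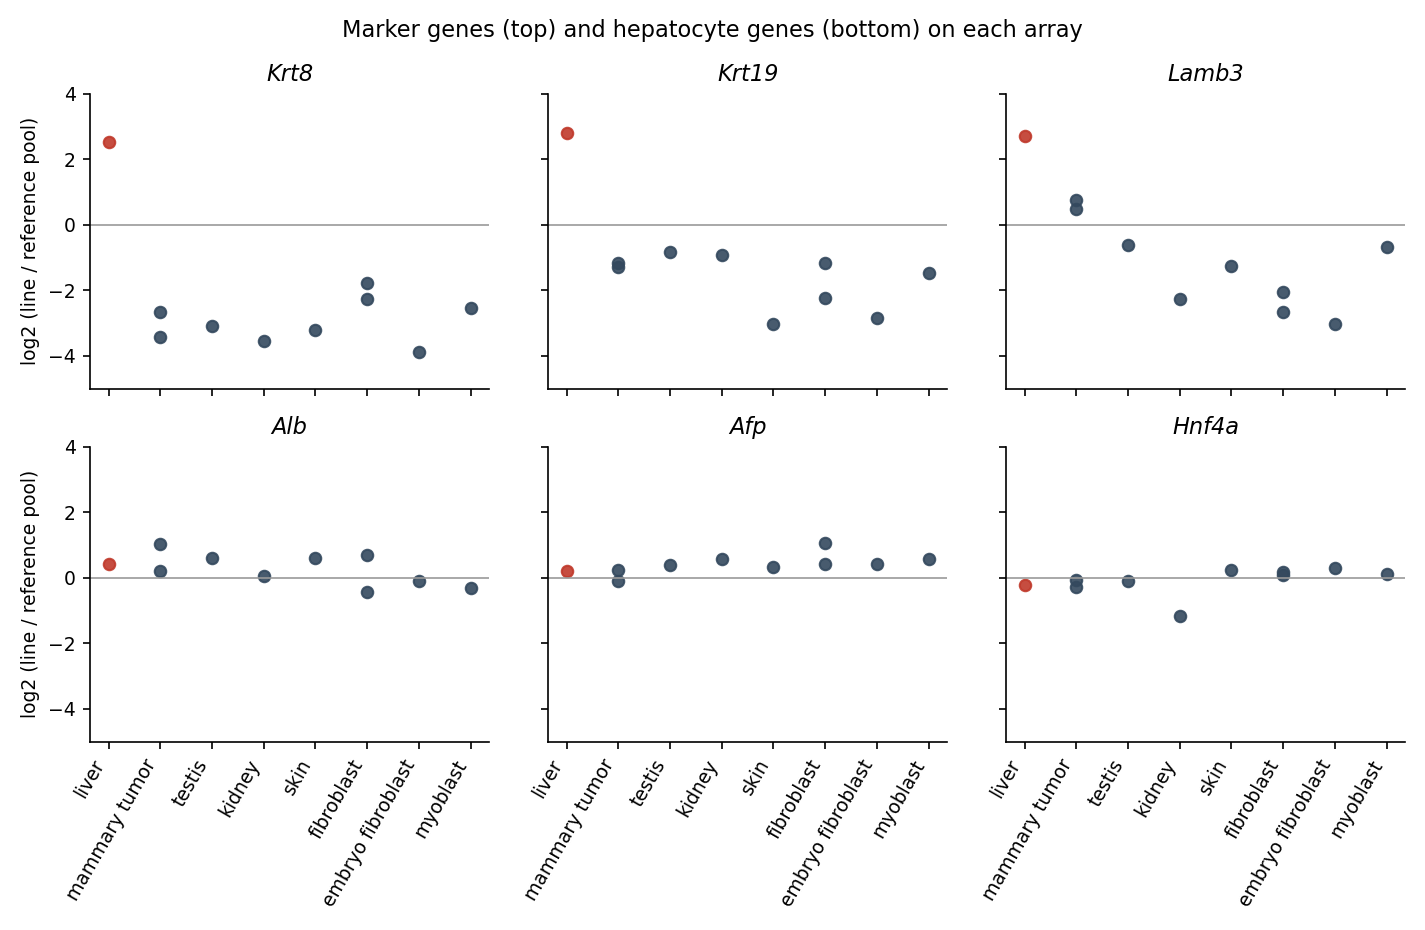
Log2 ratio of line over reference pool (vertical axes) on each array for Krt8, Krt19 and Lamb3 (top) and for Alb, Afp and Hnf4a (bottom, the first of 2 Hnf4a probes), with 1 point per array and the liver array in red. Krt8, Krt19 and Lamb3 stood between 2.54 and 2.80 on the liver array and lower on every other array, whereas Alb, Afp and Hnf4a stood at 0.40, 0.21 and -0.23 on it.

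Upstream sequences from RefSeq (GRCm38.p6) are shown for genes at both ends of the comparison, to let a reader see the regions from which Krt8, Lamb3 and the receptor gene Lsr, all high on the liver array, and Reck, the gene lowest on it, start. Each is the 250 bases before an annotated start, 5′ to 3′ on the strand of the gene. The table used has no entry for Krt19, Perp or Col5a2. Capitals mark matches that lie wholly inside the printed stretch.
Krt8, chr15:102004343-102004592, minus strand: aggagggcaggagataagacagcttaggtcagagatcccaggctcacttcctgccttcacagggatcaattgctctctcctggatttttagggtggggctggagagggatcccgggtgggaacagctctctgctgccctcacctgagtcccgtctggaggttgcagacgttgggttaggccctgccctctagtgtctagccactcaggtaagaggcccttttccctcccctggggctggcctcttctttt
Lamb3, chr1:193301744-193301993, plus strand, before a start inside the annotated gene: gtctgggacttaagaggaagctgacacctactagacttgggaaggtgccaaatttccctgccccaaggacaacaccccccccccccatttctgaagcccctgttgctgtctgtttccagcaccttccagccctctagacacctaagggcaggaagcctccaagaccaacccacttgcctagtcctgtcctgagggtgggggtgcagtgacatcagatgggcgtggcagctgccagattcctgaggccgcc
Lsr, chr7:30973470-30973719, minus strand: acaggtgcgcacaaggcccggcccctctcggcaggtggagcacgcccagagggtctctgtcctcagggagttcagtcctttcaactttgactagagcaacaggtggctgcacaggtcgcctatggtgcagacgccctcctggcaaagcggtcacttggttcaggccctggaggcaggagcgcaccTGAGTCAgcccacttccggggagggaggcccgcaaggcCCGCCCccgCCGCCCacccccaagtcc
Reck, chr4:43875280-43875529, plus strand: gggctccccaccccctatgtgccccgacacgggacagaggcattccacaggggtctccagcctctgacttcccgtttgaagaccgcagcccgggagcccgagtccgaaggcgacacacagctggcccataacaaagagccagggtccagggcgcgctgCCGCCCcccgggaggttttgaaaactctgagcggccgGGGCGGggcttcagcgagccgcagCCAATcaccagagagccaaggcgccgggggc
Motifs were searched on both strands of the 300 bases from 250 before to 50 after the start, over 27025 promoters. The TATA box was searched as TATAAA and was present in 14.16% of them. The AP-1 element was searched as TGANTCA (7.93%). The GC box was searched as GGGCGG (35.91%). The CCAAT box was present in 37.92%. The element bound by grainyhead-like factors was searched as AACCNGTT (2.01%). Lsr holds TGAGTCA from base -65 to base -59 and 2 GC boxes on the opposite strand, from -27 to -22 and from -18 to -13, with another after the start. Reck holds GC boxes from -92 to -87 and from -55 to -50 and a CCAAT from -31 to -27, and another GC box crosses its start. In Krt8 a TATAAA spans the start itself, from base -1 to base 5, and overlaps a second match on the opposite strand. None of these letters was found in the Lamb3 stretch.

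Other epithelial surface and junction genes lay beside the keratins. By the size and order rule 55 features were 4-fold higher than the 7 lines (0.741%) and 59 were 4-fold lower (0.795%). The list of simple epithelium and bile duct genes (37 probes of 37 genes) held 8 of the 55 and 0 of the 59. The markers Krt8 and Krt19 are among the 8, and the list was chosen with earlier results of these data known. Its counts are therefore descriptions and no independent support. In this list 14 probes were above all 7 lines and 0 below, against 10.6% and 9.32% of all features, and 12 were higher and 0 lower at an unadjusted p under 0.05. The list's median difference was nonetheless 0.17, against -0.0015 over all features, with 23 members between -0.73 and 0.36. Among those near 0 was E-cadherin (Cdh1, difference 0.03). The keratin 8 partner Krt18 differed by -0.21 ± 1.57 (SE), an error too wide to tell a large difference in either direction from none. The Krt18 probe stood at -0.53 on the liver array. Averaged over the list's probes, the liver array stood at 0.29 and the other lines between -1.21 in embryo fibroblast and -0.27 in mammary tumor.

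Perp, a desmosomal membrane protein, stood at 2.00 on the liver array. The mammary tumor arrays gave 2.06 and 1.76 for it and the 6 remaining lines -4.11 in myoblast to -1.61 in skin. Liver and mammary tumor thus shared a high Perp ratio, and the difference of 4.40 ± 0.97 (SE) did not pass (adjusted p = 0.26, limma). Spint2, a membrane-bound inhibitor of serine proteases, stood at 1.07 on the liver array. The other lines lay tightly between -3.68 in testis and -2.30 in kidney, and the Spint2 difference was 3.88 ± 0.48 (SE; adjusted p = 0.0743, limma).

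Lsr, a receptor that sits at tricellular junctions and binds lipoproteins, stood at 2.15 on the liver array and between -2.27 in embryo fibroblast and -0.12 in myoblast in the others. Its difference was 3.24 ± 0.36 (SE; adjusted p = 0.0532, limma). The rest of the list's 8 were chosen for naming after their values were seen. Elf3, an epithelial ETS factor, differed by 3.14, Ezr (ezrin, which links actin to the apical membrane) by 2.59 and F11r (junctional adhesion molecule A) by 2.38. Elf3 was below the pool in every other line, its highest value there being -1.49, and stood at 0.71 on the liver array.

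The remaining genes among the 15 highest have varied roles. Fgfbp1, a secreted carrier that releases fibroblast growth factors, had the highest liver value of the 15, at 3.43. The other lines gave between -0.997 in kidney and 0.53 in skin, and the Fgfbp1 difference was 3.91 ± 0.67 (SE; adjusted p = 0.14, limma). Anxa8, an annexin that binds membranes in the presence of calcium, stood at 2.17 on the liver array, at 0.07 and 0.49 in mammary tumor and between -2.44 and -1.03 in the 6 other lines (difference 3.64 ± 0.44, SE; adjusted p = 0.0743, limma).

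Wnt10a, a Wnt ligand, divided the lines. It stood at 1.80 on the liver array, 1.73 in myoblast and 0.49 in kidney, whereas the fibroblast, embryo fibroblast, mammary tumor, testis and skin arrays all lay between -3.65 and -2.13. The Wnt10a difference of 3.55 ± 0.36 (SE; adjusted p = 0.0532, limma) therefore rests on 5 of the 7 lines. Itgb7, an integrin beta chain best known from lymphocytes, stood at 1.68 on the liver array, with 0.92 and 0.94 in fibroblast, 0.14 in embryo fibroblast and -3.74 to -1.72 in the other 5 lines (difference 3.47 ± 0.38, SE; adjusted p = 0.0532, limma). Its difference against the arrays of the same image run was 2.55.

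Pcbd1, which recycles the cofactor of phenylalanine hydroxylase, differed by 4.04 ± 0.77 (SE; adjusted p = 0.178, limma), with 2.62 on the liver array and at most -0.78 in the others. Zdhhc2, a palmitoyltransferase, differed by 3.90, Serpinb9b, a serine protease inhibitor, by 3.50 and Crip1, a LIM-domain protein, by 3.51. Cd36, a fatty acid receptor, differed by 3.53 ± 1.11 (SE) but stood at 0.22 on the liver array, close to the pool. The 55 higher features included 52 above the pool on the liver array and 19 with a liver value above 2. In 14 of the 55 a blood-cell line was higher still, and in 30 of the 59 lower features a blood-cell line was lower still.

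**Figure D2:**
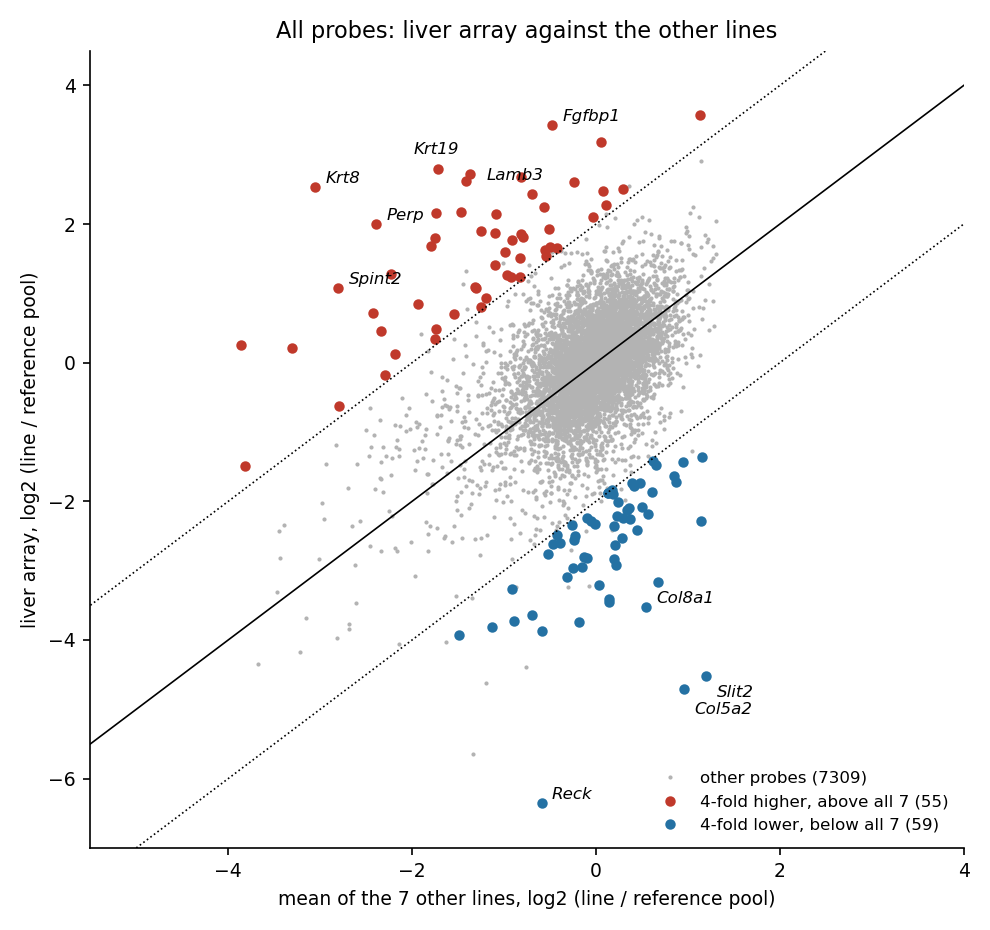
Value on the liver array (vertical axis) against the mean of the 7 other lines (horizontal axis), both as log2 of line over pool, for 7423 features. The solid line is equality and the dotted lines are 4-fold differences. The 55 features in red and the 59 in blue lie beyond those lines and outside the range of the 7 lines, with Krt8 farthest above and Reck, Slit2 and Col5a2 farthest below.

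Hemidesmosome and basement membrane genes were split between both directions. Their list includes the marker Lamb3 and was chosen with earlier results of these data known. Of 35 probes (29 genes), 6 were higher and 3 lower at an unadjusted p under 0.05 (all features: 4.86% and 3.38%), and the median difference was 0.05. Beside Lamb3, the integrin beta 4 chain of hemidesmosomes (Itgb4, named after its value was seen) was 4-fold higher, with 1.24 on the liver array against at most 0.15 in the other lines. The laminin alpha 3 chain, which pairs with the product of Lamb3, was measured by 3 probes of Lama3, and their differences were 0.15, -0.14 and -0.07. On the lower side stood Lamb1, the beta chain of the widespread laminins. Lamb1 was -2.29 on the liver array and between 0.01 in mammary tumor and 2.58 in embryo fibroblast elsewhere (difference -3.43 ± 0.48, SE; adjusted p = 0.0826, limma). Liver was thus above every line for the beta 3 chain and below every line for the beta 1 chain. Col4a6, a basement membrane collagen chain, differed by -2.77 and Nid1, which links laminin to collagen IV, by -2.54.

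The lower side included matrix genes and genes that act on the matrix. Reck, a membrane-anchored inhibitor of matrix metalloproteinases, had the lowest liver value of the genes named here, at -6.36. The other lines gave -0.18 and 0.68 in mammary tumor, -1.05 and 0.22 in fibroblast, -0.86 in embryo fibroblast, -1.58 in myoblast, -0.61 in testis, -0.86 in kidney and -0.07 in skin. Those 9 arrays lay within 1.58 of the pool, and of the 8 lines only liver was far below it. The Reck probe carries number 1364, and Cplx2, also lower in liver, is on probe 1362. The Cplx2 difference was between -3.92 and -2.66 over the settings. The part of this neighbourhood in the Reck value was not tested. The Reck difference was -5.76 ± 0.59 (SE; adjusted p = 0.0532, limma) and -6.16 against the arrays of the same image run.

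Slit2, a secreted guidance cue that binds Robo receptors, stood at -4.52 on the liver array. The others ran from -0.67 in mammary tumor through a median of 1.45 in skin to 2.45 in testis. The Slit2 difference was -5.72 ± 0.65 (SE; adjusted p = 0.0532, limma). Col5a2, a chain of the collagen that sets fibril diameter, stood at -4.70 on the liver array, at -1.31 and -1.60 in fibroblast, and between -0.47 in skin and 2.49 in mammary tumor in the remaining lines (difference -5.66 ± 0.74, SE; adjusted p = 0.0743, limma).

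The list of extracellular matrix and fibroblast genes had a median difference of -1.11 over 71 probes of 65 genes, and 58 of the 71 were negative. Over all features 3719 of 7423 were negative. At an unadjusted p under 0.05, 26 probes were lower and 2 higher, where all features gave 3.38% and 4.86%. By the size and order rule 8 were lower and 0 higher (all features: 0.795% and 0.741%). Of the 71 probes, 18 lay below all 7 lines and 1 above (all features: 9.32% and 10.6%). No member of the list passed the adjusted test. The mean over the list was -1.43 on the liver array, against -1.20 in skin, -0.07 for the median line and 0.47 in myoblast, so the skin line was nearly as low as liver. Col8a1, a short-chain collagen, was at -3.52 on the liver array against -0.72 in kidney to 1.82 in fibroblast (difference -4.06 ± 0.46, SE; adjusted p = 0.0532, limma). Loxl1, an enzyme that cross-links elastin and collagen, differed by -3.83, and Bgn (biglycan), a small proteoglycan, by -2.86, although mammary tumor, at -2.27 for Bgn, was almost level with the -2.41 of liver.

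Tnc, which encodes the anti-adhesive glycoprotein tenascin C, had 2 probes and both were lower, by 3.55 and 2.56 on the log2 scale. On the first Tnc probe liver stood at -3.40, fibroblast at -2.57, and the other lines between -1.67 in skin and 2.51 in myoblast. Thbs2, an anti-angiogenic thrombospondin, stood at -5.64 on the liver array, but skin was lower still at -6.27, so it did not meet the order rule despite a difference of -4.31 ± 1.28 (SE). Not every matrix gene was low. Ccn2, a growth-factor-responsive matricellular protein, and Loxl2 were named after their values were seen, as the 2 probes higher at an unadjusted p under 0.05, with differences of 1.53 and 1.28.

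Some lower features have no matrix role, such as Slc5a7, a choline transporter of neurons (-3.55 ± 0.92, SE), and Vmn2r88, a vomeronasal receptor gene (-3.03 ± 1.43, SE), with adjusted p-values by limma of 0.334 and 0.666 in that order. Their probes carry the numbers 208 and 441, and the Slit2 probe number 448. Of the 59 lower features 16 lay among probes 1 to 500, where 471 were tested (3.40%) and the median difference was -0.32. The part of probe number in the lower values was not tested beyond removing a smooth trend along it, after which the Slit2 difference was -5.45 and 52 features were 4-fold lower.

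**Figure D3:**
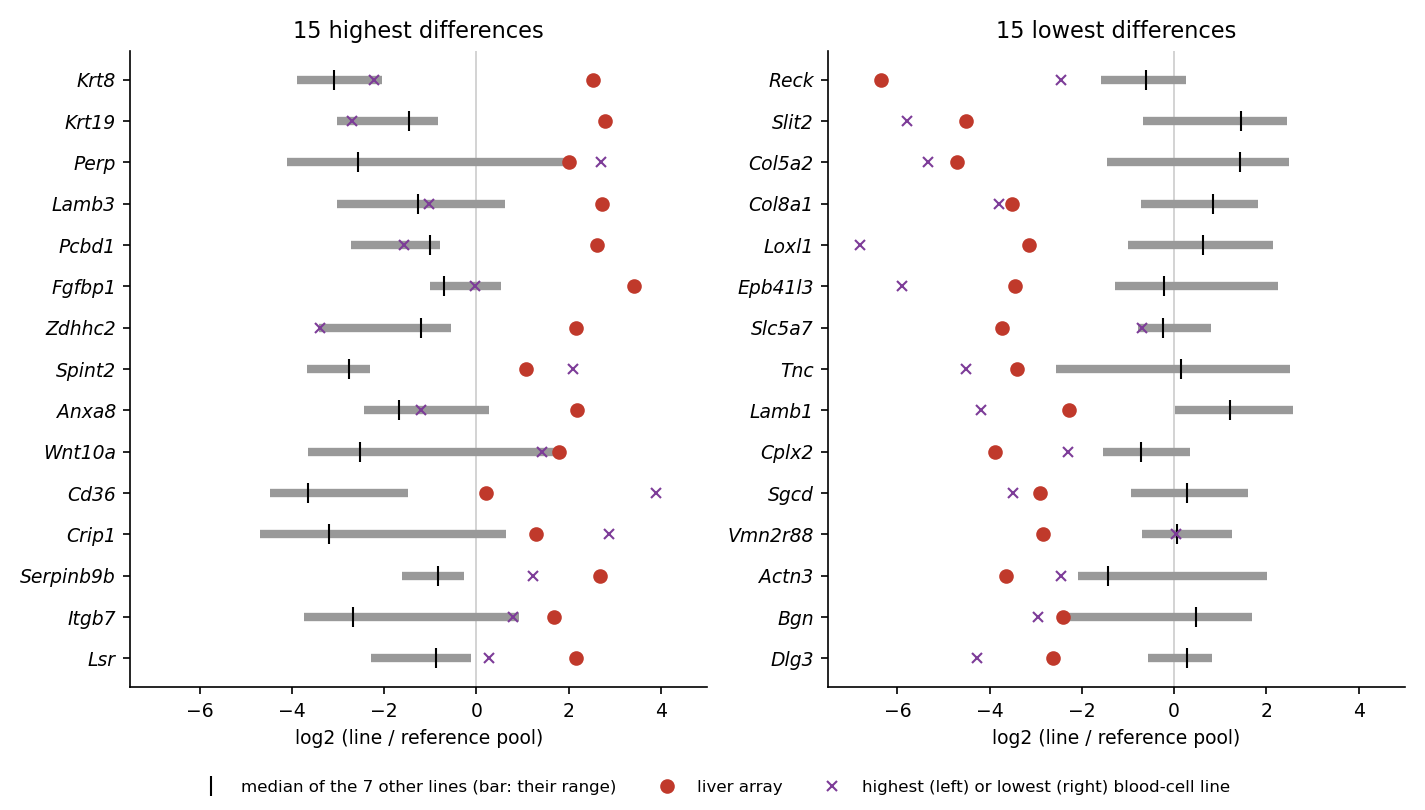
The 15 highest (left) and 15 lowest (right) differences among features that met the size and order rule and carry 1 gene symbol, in log2 of line over pool. Grey bars span the 7 other lines with their median as a black tick, red points are the liver array, and crosses are the highest (left) or lowest (right) of the 3 blood-cell lines. Liver lies outside every grey bar, narrowly for Perp, Wnt10a and Bgn. Blood-cell lines pass liver on the left for Perp, Spint2, Cd36 and Crip1, and on the right for Slit2, Col5a2, Tnc and others.

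Against the 3 mesenchymal lines alone (fibroblast, embryo fibroblast and myoblast), limma called 15 features (0.202%), 7 higher (0.0943%) and 8 lower (0.108%), all at an adjusted p of 0.0453. Krt8 rose by 5.36 ± 0.45 (SE) and Lamb3 by 4.74 ± 0.43 (SE) on this contrast. The other higher calls were Anxa8 (3.95), Akip1 (3.93), Wnt10a (3.51), Lsr (3.31) and Cd2ap (3.02), an adaptor between membrane proteins and actin. Akip1, a protein that binds protein kinase A, stood at 0.59 on the liver array and at -5.16 in embryo fibroblast, but at 1.82 in kidney, so the kidney line was above liver.

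The 8 lower calls on this contrast were led by Slit2 (-5.85), Reck (-5.40), Col8a1 (-4.54) and Tnc (-4.08). Pdpn, a mucin-type glycoprotein of lymphatic and stromal cells, fell by 3.89 ± 0.45 (SE). It stood at -3.22 on the liver array and between -0.53 and 1.80 on the arrays of the mesenchymal lines, while the mammary tumor arrays, at -3.38 and -3.19, matched liver. Dpysl3, a cytosolic protein of growth cones and migrating cells, fell by 3.48 ± 0.42 (SE), with -1.28 on the liver array, 1.90 to 2.44 on the mesenchymal arrays and -3.09 and -2.75 in mammary tumor. Tagln, an actin-binding protein of smooth muscle, fell by 3.41 against the mesenchymal mean. It stood at 3.46 in myoblast and -0.26 in embryo fibroblast, while fibroblast, at -3.25 and -3.04, was close to the -3.39 of liver. Lef1, a Wnt-pathway transcription factor, fell by 3.06. The number of calls on this contrast was 0 without the blood-cell arrays in the model, 0 with a robust variance prior and 2 without median centring. It was also 0 when either mammary tumor array, either myeloma array or the embryo fibroblast array was left out.

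Against the 4 lines named for an organ or tumor of one (mammary tumor, testis, kidney and skin) limma called 1 feature (0.0135%). It was Krt8, with a difference of 5.76 ± 0.44 (SE; adjusted p = 0.0345). Both contrasts share the liver array, so their values are not independent. For Krt19 they were 4.30 and 4.80, for Lamb3 3.60 and 4.74, for Reck -6.03 and -5.40, and for Crip1 4.33 and 2.42 (organ-named lines first). Crip1 thus stood further from the organ-named lines, with -4.44 and -4.95 in mammary tumor, than from the mesenchymal lines, where myoblast gave 0.64; the difference between the contrasts was not tested.

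Of the defining genes of hepatocytes, Alb, Afp, Ttr and Hnf4a stood near the pool on the array labelled liver, Apoa1 lower and Foxa2 higher. For Alb, Afp, Ttr, Apoa1 and both Hnf4a probes that array lay within the range of the 7 other lines, and for Foxa2 above it. Alb (albumin) stood at 0.40 on the liver array against -0.30 in myoblast to 0.61 in mammary tumor, and Afp (alpha-fetoprotein) at 0.21 against 0.06 to 0.73. Ttr, the plasma carrier of thyroxine, stood at 0.12 and Apoa1, the main protein of high-density lipoprotein, at -0.85. The 2 probes of Hnf4a, the nuclear receptor that governs hepatocyte genes, gave -0.23 and 0.24. Over the lists of plasma proteins, hepatocyte metabolism and liver transcription factors (107 probes of 101 genes), limma called 0, with 5 at an unadjusted p under 0.05 where all features gave 8.24%. On the liver array 3 of the 107 stood above 1 and 0 above 2, or 2.80% above 1 where all features gave 5.33%. A ratio near 0 is relative to the pool and does not show that a gene is silent, but the line is called liver here by its label only.

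The 3 hepatocyte-list probes above 1 were Nr1h3, Foxa2 and Arg1. Nr1h3, the oxysterol receptor LXR alpha, was 4-fold higher, with 1.26 on the liver array and -2.77 in embryo fibroblast to 0.42 in mammary tumor elsewhere (difference 2.23 ± 0.37, SE; adjusted p = 0.137, limma). Foxa2, a forkhead factor of gut-derived epithelia, stood at 1.15 against at most 0.45 in the others (difference 1.17 ± 0.44, SE; adjusted p = 0.538, limma). Arg1, the last enzyme of the urea cycle, stood at 1.08 against 0.98 in embryo fibroblast. The lists of hepatocyte plasma proteins and metabolism had median differences of -0.13 and -0.17.

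Markers of other cell types were examined in the same way. By the size and order rule all features gave 0.741% higher and 0.795% lower. The keratinocyte list (24 probes) had a median of 0.09, and 2 members were 4-fold higher, Perp and the cornified envelope gene Sprr1a (2.78 ± 0.49, SE; adjusted p = 0.14, limma), while the basal factor Trp63 differed by -0.25. For the 29 leukocyte probes the median was 0.28, and 7 were higher and 1 lower at an unadjusted p under 0.05 (all features: 4.86% and 3.38%). Ptprc, the leukocyte antigen CD45, differed by 2.33, but its liver value was -1.49, and the leukocyte list as a whole stood at -1.45 on the liver array and between -2.40 and -1.60 in the other lines. The hepatic stellate list (12 probes) and endothelial list (16 probes) had medians of -0.56 and -0.44, and 0 of their probes met the size and order rule. Lists this short would be likely to hold 0 at the share over all features. Muscle (-0.03), kidney (-0.23), mammary gland (-0.02) and testis somatic genes (-0.37) were near or below 0. The testis somatic list held 1 probe 4-fold higher, of Clu (difference 3.15), whose second probe differed by -0.82. The medians for muscle and mammary gland turned positive under another normalization or without 1 array. Krt8 was the one call by limma in any of these lists, as a member of the mammary gland list too.

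Cell cycle genes, a list that includes inhibitors of the cycle, lay slightly to the higher side. Over all features 3704 of 7423 differences were positive. Of 47 cell cycle probes 35 were positive, with a median of 0.22, and 10 were higher and 0 lower at an unadjusted p under 0.05, where all features gave 4.86% and 3.38%. In 13 the liver array was above all 7 lines and in 0 below, against 10.6% and 9.32% of all features. Averaged over the list, liver stood at 0.52 and kidney higher, at 0.66. Cdc6, which loads the replicative helicase, stood at 1.34 on the liver array against -1.39 in myoblast to 0.88 in kidney (difference 1.40 ± 0.36, SE; adjusted p = 0.334, limma). Rrm2, a subunit of ribonucleotide reductase, differed by 1.16. The cyclin-dependent kinase inhibitors Cdkn1a (p21) and Cdkn2a (p16 and p19) had the widest differences of the list, 2.03 and 1.46, although myoblast, at 2.56, was above the 2.14 of liver for Cdkn1a.

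**Figure D4:**
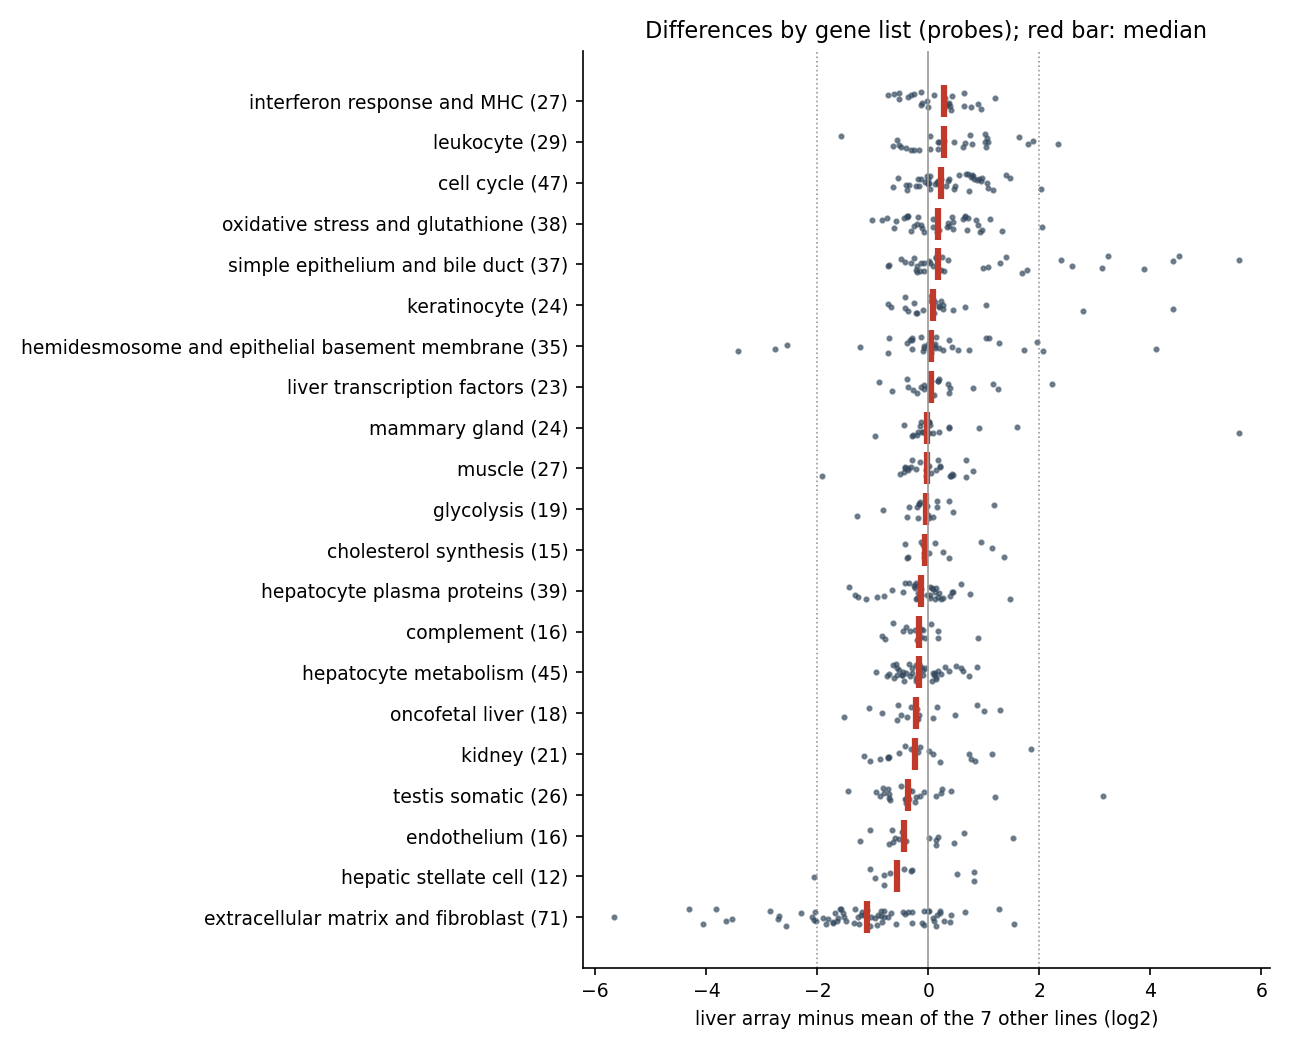
Difference of each listed probe (points, vertically scattered for visibility), liver array minus mean of the 7 other lines in log2, by gene list with the number of probes in brackets, red bars marking the medians and dotted lines 4-fold. The matrix and fibroblast list is shifted to the left with a median of -1.11. The simple epithelium list has a median near 0 and a long tail to the right that ends at Krt8.

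Across 7423 features the liver line correlated with kidney at r = 0.42 and with skin at 0.35, and with the other 5 lines between 0.22 in myoblast and 0.30 in fibroblast. All these values share the reference pool, and the 2 arrays of the fibroblast line correlated with each other at only 0.38. The values are therefore given as descriptions and do not rank the lines by likeness. Pairs among the 7 other lines ran from 0.10 for myoblast with testis to 0.50 for fibroblast with skin. By the size and order rule, with each of the 8 lines set in turn against the other 7, liver had 55 higher and 59 lower features. The other lines ranged from 13 (skin) to 135 (myoblast) higher and from 26 (mammary tumor) to 139 (embryo fibroblast) lower. Liver was within both ranges.

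The genes whose values over the 8 lines followed each marker most closely were listed by Pearson's r, as a description that rests mainly on the single liver value. For Krt8 they were Me1, the cytosolic malic enzyme (r = 0.97), Serpinb9b (0.97) and Hoxb3 (0.95), although the second probe of Hoxb3 differed by -1.61 where the first differed by 0.73. For Krt19 they were Pcbd1 (0.99), Zdhhc2 (0.96) and Dlgap4 (0.96). The Zdhhc2 probe carries number 5585 and the Krt19 probe 5586, and the part of this neighbourhood in their likeness was not tested. For Lamb3 they were Padi3, a peptidylarginine deiminase (0.96), the receptor Cd40 (0.93) and S100a3, a calcium-binding protein (0.93).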

How the data were processed

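The authors deposited 1 value per spot and array, which was read as a log2 ratio of line over pool. Their image software, filters and normalization were not given in the sources used. Of 107520 cells in 7680 spots, 423 were empty. The 80 Gapdh spots were averaged, leaving 7601 features, of which 7423 had a value in all 11 lines. Each array was centred on its median. The liver array's deposited median was -0.07.

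Gene names came from the platform annotation: 6835 probes had 1 symbol, 4 had several and 841 were unlisted. limma 3.58.1 (R 4.3.3) fitted 1 coefficient per line over 14 arrays, with 3 residual degrees of freedom and a prior of 3.78 more. Its median residual SD was 0.43. The script was tested on simulated data. In them the liver array had the same spread as the other arrays, so the test cannot check that assumption. Number of arrays, not read depth, limits precision.

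Named genes were the 3 markers, called features, the 15 highest and 15 lowest by the size and order rule, up to 4 per list with the widest differences, defining hepatocyte genes, and the 3 nearest in pattern to each marker. Other names are marked where they occur. The members and the 21 lists (794 entries, 793 matched to a RefSeq gene) were chosen with earlier results of these data known. Not every matched gene was on the array. Of the hepatocyte lists it held 36 of 58 plasma protein, 45 of 68 metabolism and 22 of 25 transcription factor entries. Alternatives covered centring, scaling, normalization, arrays, probes, weights, variance prior, image run and probe number. All value columns were mapped to samples by their labels.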

Additional observations from a re-analysis of the deposited data

Results flagged for a closer look

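The blood-cell lines took no part in the comparison, and 4 of the 15 highest genes were higher in one of them than on the liver array, in log2 of line over pool. Perp stood at 2.70 in the T-cell lymphoma line against 2.00 in liver. Spint2 stood at 2.09 in the myeloma line against 1.07. Cd36 stood at 3.89 in the macrophage line against 0.22, and Crip1 at 2.88 in the myeloma line against 1.28. On the lower side, 30 of the 59 features were lower still in a blood-cell line: Slit2 reached -5.80 there against -4.52 in liver, Col5a2 -5.34 against -4.70 and Tnc -4.51 against -3.40. The differences reported for these genes therefore hold against the 7 adherent lines and not against the whole series.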

How the results depend on the processing

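The number of limma calls depended on the processing. Against all 7 lines, 1 call became 21 with quantile normalization, 15 with a trend along probe number removed, 8 with only probes measured on all 14 arrays, and 4 each with arrays scaled to one median absolute deviation, with the image run as a random block and with arrays weighted equally. It became 0 without the blood-cell arrays (574 at an unadjusted p under 0.05 by limma). Leaving out arrays gave 0 to 17 calls. Without either mammary tumor or either myeloma array there were 0 (393, 383, 572 and 573 at an unadjusted p under 0.05), without the first or second fibroblast array 17 and 15, and without myoblast 4. Krt8 kept its call in 15 of 20 other tested settings, with a difference of 4.98 to 6.09 over all settings. Lamb3 was called in 9 of them and Krt19 in 1.

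Against the organ-named lines 1 call became 11 (quantile), 3 (scaled), 0 (no blood-cell arrays, 489 at an unadjusted p under 0.05), 5 (image run), 5 (equal weights) and 4 (trend), and 0 to 9 without single arrays. Against the mesenchymal lines 15 became 2 (not centred), 56 (quantile), 3 (scaled), 0 (no blood-cell arrays, 736 unadjusted), 27 (image run), 0 (robust prior, 762 unadjusted) and 26 (trend), and 0 to 40 without single arrays. On these 2 contrasts there were 0 calls without either mammary tumor or either myeloma array. Without the first or second fibroblast array there were 9 and 9 organ-contrast and 31 and 40 mesenchymal-contrast calls. Without kidney there were 5 organ-contrast calls, and without embryo fibroblast or myoblast 0 and 30 mesenchymal-contrast calls. The 55 higher features became 290 at a threshold of 1, 20 at a threshold of 3 and 119 read as natural logs, and 53 to 65 without single arrays. The 59 lower features became 96 (quantile), 256, 13 and 127 by the same settings, 114 against the lines of the same image run only, and 56 to 68 without single arrays. No difference of a named gene that was called changed sign. The cause of these changes was not tested. The list medians of liver transcription factors, muscle, cholesterol synthesis, glycolysis and mammary gland changed sign over the settings.

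No paired analysis was possible because the liver line has 1 array and no second replicate number to share with another line. The image run it shares with testis and the second fibroblast array was used as a random block instead. One liver array, a common pool with no dye swap and unknown spot intensities limit every value, and a gene absent from both the line and the pool also gives a ratio near 0.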

Other observations

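Further genes of the 55 higher features were chosen for naming after their values were seen. Ripk4 and Scel, both of stratifying epithelia, differed by 2.69 and 2.50 and stood at 1.78 and 1.40 on the liver array. Tuft1 differed by 3.13, and Sh3bp1, a regulator of Rac at junctions, by 3.13 with 3.18 on the liver array. The receptors Epha4 and Notch1 differed by 2.84 and 2.44, with 2.61 and 1.93 on the liver array. Vamp8, a SNARE of secretory granules, differed by 2.40. None of these passed the adjusted test, with adjusted p-values by limma from 0.113 for Tuft1 to 0.274 for Sh3bp1.

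On the lower side, Bcat2 and Bcat1, which encode the mitochondrial and cytosolic branched-chain aminotransferases, differed by -2.80 and -2.44 and stood at -2.95 and -2.21 on the liver array. Their probes carry the numbers 1602 and 1600. Hoxa5 and Hoxc6 differed by -2.75 and -2.06. Of the 59 lower features 17 had another of the 59 within 2 probe numbers, and of the 55 higher features 4 had another of the 55 as near. The part of array position in these values was not tested.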
